A study of Bos taurus with 60 samples.

Results

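Genes whose transcript abundance followed the interferon-stimulated gene MX2 only moderately were examined in the endometrium of 60 beef heifers. Members were chosen from the measured values. For each of 14363 genes that passed an expression filter, Pearson's r between its log2 CPM and that of MX2 (ENSBTAG00000008471) was taken over all 60 libraries, where CPM is the usual depth-scaled read count, taken here with TMM-scaled library sizes. An r above 0.6 and up to 0.8 was found for 364 genes. Of these, 6 were among the 100 most abundant genes and were left out, and the 200 of the remaining 358 with the highest r are the members described here. Another 155 genes had an r above 0.8 and are used below for comparison.

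Heifers, a crossbred population that had not calved, received either a control concentrate diet with protected palmitic acid (CON) or one enriched in n-3 polyunsaturated fatty acids (PUFA) for 30 days before insemination. After insemination each stayed on the high plane of nutrition (High) or was restricted below its estimated maintenance requirement (Low) for 16 days, still with its supplement, until endometrium was collected. The groups by their labels were CON_High (n = 14), CON_Low (n = 14), PUFA_High (n = 17) and PUFA_Low (n = 15), and each library is a separate animal. The design text deposited with the data gives the opposite sizes for both PUFA groups, so the direction of every PUFA comparison between planes rests on the labels. Pregnancy status is in no label used here, and each diet group can hold pregnant and non-pregnant heifers.

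In ruminants the elongating conceptus secretes interferon tau around the time of maternal recognition of pregnancy. Interferon tau binds the type I interferon receptor of the endometrium and raises a large set of interferon-stimulated genes. MX2 is one of these and encodes a dynamin-like GTPase with antiviral activity. The counts carry Ensembl identifiers that could not be paired with gene names here. The functions of the members, the interferon label of the set and the cell types of the tissue could therefore not be checked against known genes, and the set is defined by its correlation with MX2 alone.

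Total counts ranged from 9635801 to 13943813 per library. The top-100 share, the part of a library's reads that fell on the 100 genes with the most counts, was 25.8% ± 3.31 (SD, n = 15) in PUFA_Low, 20.8% ± 1.91 (SD, n = 17) in PUFA_High, 21.8% ± 2.15 (SD, n = 14) in CON_Low and 22.0% ± 2.99 (SD, n = 14) in CON_High. It is given below beside the results it moves with. As the tissue was sequenced in bulk, fewer cells of a type and less RNA per cell cannot be told apart.

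MX2 itself fell into separate ranges. Its log2 CPM lay between 1.58 and 4.19 in 14 libraries and between 7.33 and 11.21 in 46, with a gap of 3.15 between them where the next widest gap was 0.88. Libraries below the gap came from every diet group, 3 from CON_High, 4 from CON_Low, 3 from PUFA_High and 4 from PUFA_Low. The lowest, median and highest MX2 values were 2.81, 702 and 2372 CPM in CON_High and 8.91, 866 and 2098 CPM in CON_Low. They were 5.44, 796 and 1743 CPM in PUFA_High and 5.31, 727 and 2262 CPM in PUFA_Low. The 4 groups thus covered nearly the same span, and none of the 5 diet comparisons called MX2, with log2 fold changes from -0.28 to 0.12 and adjusted p-values of 0.903 or more (edgeR's quasi-likelihood test). Because the pooled r joins separate ranges of MX2, the correlations within each range are given below. All correlations are descriptions without a test, since the members were chosen by r and the libraries share the same scaling.

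Over all 60 libraries the r of the members ran from 0.660 to 0.80 with a median of 0.718. The lower end came from the limit of 200 genes and not from the r of 0.6. The first genes past it had r of 0.659 and 0.658, close to the lowest members at 0.660, and the genes nearest above the upper end had r of 0.801 and 0.802. No break in r therefore separates the members from the genes on either side.

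Within the 46 libraries above the gap, r with MX2 was positive for all 200 members, from 0.279 to 0.915 with a median of 0.634. It was over 0.7 for 58 members and under 0.5 for 43. Over the genes with r above 0.8 the median within these libraries was 0.851, and over all tested genes it was -0.027. Below the gap the members had no common direction, with 101 of 200 positive, a median of 0.007 and a span of -0.774 to 0.689 over 14 libraries. The genes with r above 0.8 were spread there too, from -0.766 to 0.824 with a median of 0.109 and 93 of 155 positive. Of all tested genes 50.1% were positive there, so the spread is not particular to the members. The relation of the members to MX2 was thus seen in the upper range of MX2 and across the gap. As members were chosen by r over all 60 libraries, this follows in part from the choice. In the lower range, where MX2 was at most 4.19 log2 CPM, no shared relation was detectable.

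**Figure D1:**
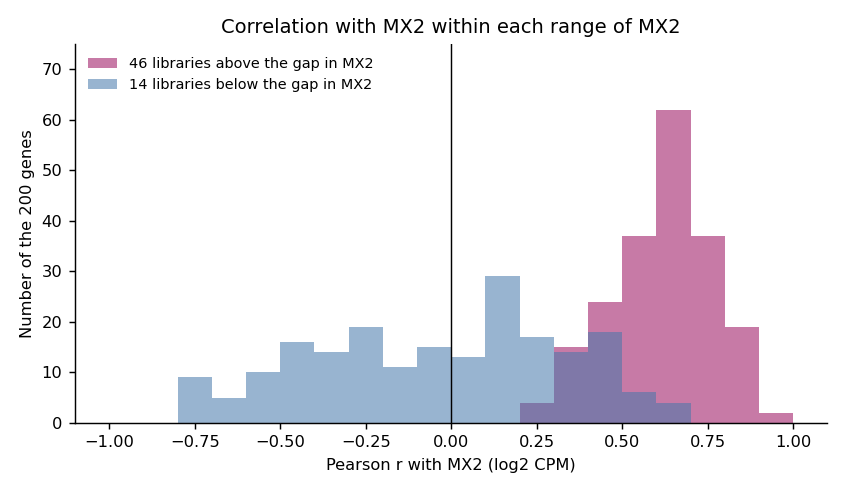
Number of the 200 members (y axis) by Pearson's r with MX2 on the log2 CPM scale (x axis, bins of 0.1), taken within the 46 libraries above the gap in MX2 (purple) and the 14 below it (blue). All 200 values above the gap are positive, with a median of 0.634, and those below it spread on both sides of 0, with a median of 0.007.

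Slopes on MX2 were mostly steeper within the upper range than over all libraries, though not for every member. No slope was taken within the lower range. The median slope was 0.176 log2 units of member per log2 unit of MX2 over all 60 libraries and 0.331 within the 46 above the gap, where slopes ran from 0.097 to 1.89. A slope above 0.5 was found for 37 members in those libraries, and 3 members had one above 1, which means that they changed more than MX2 did. A squared term of MX2 was positive, a curve bending upwards, for 195 of 200 members (97.5%), for 150 of the 155 genes with r above 0.8 and for 49.2% of all tested genes. The curve is therefore shared with the strongly linked genes. Spearman's rho, which uses ranks alone, had a median of 0.764 over the members and ran from 0.562 to 0.923. Without CON_High replicate 9 and PUFA_Low replicate 10, the libraries farthest from the median of MX2, r had a median of 0.713 and ran from 0.598 to 0.867.

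The mean log2 CPM over the 200 members gave each heifer 1 value. In the 14 libraries below the gap in MX2 it ran from 2.97 to 3.64. Of the 46 libraries above the gap, PUFA_Low replicate 2 with 3.53 and CON_High replicate 7 with 3.60 lay inside that span, at 7.33 and 8.33 log2 CPM of MX2. The other libraries with MX2 just above the gap were a little higher, with 4.01 in PUFA_Low replicate 1, 3.78 in PUFA_Low replicate 13 and 3.97 in CON_Low replicate 12. For the genes with r above 0.8 the same mean ran from 3.67 to 4.19 below the gap and none of the 46 libraries above it fell inside that span. PUFA_Low replicate 2 had 4.71 and CON_High replicate 7 had 5.37 for those genes. Both sets were separated by their r with MX2 over these same libraries, so the cleaner split of the genes with r above 0.8 follows from the choice and is a description only.

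**Figure D2:**
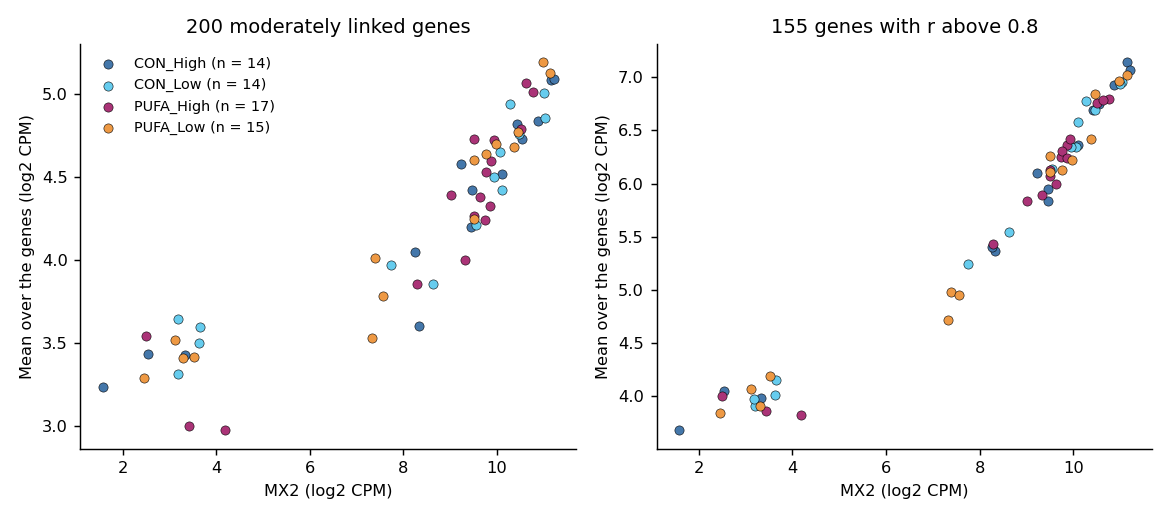
Mean log2 CPM over the 200 members (left) and over the 155 genes with r above 0.8 (right) against log2 CPM of MX2, 1 point per heifer, coloured by diet group. On the left, 2 libraries above the gap in MX2 lie within the span of the 14 below it, which is 2.97 to 3.64, and on the right none does.

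The diet groups overlapped almost wholly in this mean. Its lowest, median and highest values were 3.23, 4.47 and 5.09 in CON_High, 3.31, 4.31 and 5.00 in CON_Low, 2.97, 4.38 and 5.06 in PUFA_High, and 3.29, 4.24 and 5.19 in PUFA_Low. Within each group alone r with MX2 was positive for all 200 members. Its median was 0.740 in CON_High, 0.769 in CON_Low, 0.732 in PUFA_High and 0.775 in PUFA_Low, and it was over 0.6 for 176, 180, 169 and 195 members in that order. With each diet group centred on its own mean, r ran from 0.659 to 0.831. Library codes begin with 1 of 6 prefixes, which the labels do not explain. Within the prefixes, 10 libraries each, the median r lay between 0.673 and 0.820, and 199 or 200 of the 200 members were positive in each.

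The number of reads behind the members varied widely. Mean abundance ran from 0.573 to 936 CPM with a median of 23.4, where all tested genes had a median of 22.4 and the genes with r above 0.8 one of 85.9. These are reads per gene, without a correction for gene length. Means were under 1 CPM for 5 members, from 1 to 10 for 61, from 10 to 100 for 99 and over 100 for 35, and 11 members had at least 1 library with no count. Together the members held between 0.543% and 2.28% of the TMM-scaled counts of a library, with a median of 1.36%.

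The span between the lowest and the highest library was wide for most members. It ran from 0.844 to 11.69 log2 units with a median of 3.24, against 1.86 over all tested genes and 4.19 over the genes with r above 0.8. A span above 4 log2 units was found for 68 members, 34% of them where 8.65% of all tested genes had one, and 37 members had less than 2. The choice by correlation favours genes that vary, so these shares describe the set and were not tested. The member with the widest span ran from 0.0871 CPM in PUFA_High replicate 2 to 860 CPM in CON_High replicate 6 with a median of 40.7 CPM, an r of 0.764 over all libraries and 0.819 above the gap. The member with the narrowest span stayed between 67.0 and 120 CPM and still had an r of 0.747. A given r with MX2 was thus reached both by a gene near 0 counts in single heifers and by one that varied 1.79-fold.

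The member with the most reads ran from 198 CPM in PUFA_High replicate 2 to 2145 CPM in CON_Low replicate 9, with a median of 838 CPM and an r of 0.736. The member most closely tied to MX2 above the gap, with an r of 0.915 there and 0.787 over all libraries, ran from 65.9 CPM in CON_High replicate 9 to 412 CPM in CON_Low replicate 14. Below the gap its r was 0.164.

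ENSBTAG00000000504 had the highest r of the members, 0.80. Its lowest, median and highest values were 45.9, 97.9 and 186 CPM in CON_High and 41.9, 85.4 and 150 CPM in CON_Low. They were 35.3, 87.1 and 218 CPM in PUFA_High and 45.7, 90.2 and 231 CPM in PUFA_Low. The groups overlapped over nearly their whole range, and the gene varied within each of them by several fold. Its log2 difference between planes in PUFA heifers was 0.30 (SE 0.236, adjusted p = 0.363, edgeR's quasi-likelihood test).

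ENSBTAG00000003807 followed with an r of 0.799 and varied far less. It ran from 42.4 to 82.3 CPM in CON_High with a median of 66.9, and from 46.6 to 82.0 CPM in CON_Low with a median of 62.9. It ran from 42.3 to 79.5 CPM in PUFA_High with a median of 65.5, and from 40.7 to 90.5 CPM in PUFA_Low with a median of 63.0. All 4 groups overlapped, and the log2 difference between planes in PUFA heifers was 0.03 (95% interval -0.18 to 0.23, adjusted p = 0.872, edgeR). That interval lies inside a 1.5-fold change in either direction.

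The extreme values of the members gathered in few heifers. The lowest library of 142 members was 1 of 4, with 47 members lowest in PUFA_High replicate 2, 36 in PUFA_High replicate 11, 34 in CON_High replicate 9 and 25 in PUFA_Low replicate 10. All 4 lie below the gap in MX2, at 4.19, 3.42, 1.58 and 2.45 log2 CPM. Of the members, 14 had their lowest value in a library above the gap. Both PUFA_High libraries had the lowest mean over the members, 2.97 and 3.00, although their MX2 was not the lowest. Highest values were less concentrated. CON_High replicate 6, the library with the most MX2, held 32 and PUFA_High replicate 4 held 19, 51 together, while 35 libraries held none. CON_High replicate 11 was highest for 15 members at a middling MX2 of 9.24 log2 CPM, with a top-100 share of 28.2%. Only 3 members had their highest value in a library below the gap.

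Members chosen for their r with MX2 over these libraries also correlate with each other and with a component along MX2, so the following values describe the set and are no separate finding. Among the 19900 pairs of members r over 60 libraries ran from 0.173 to 0.972 with a median of 0.624, and none was negative. Within the 46 libraries above the gap the median was 0.464 and 175 pairs were negative. In a principal component analysis of the members, each scaled to the same variance, the first component held 62.9% of the variance and had an absolute r of 0.908 with MX2 over the 60 libraries. The second held 6.53% and followed neither MX2 (0.002) nor the top-100 share (0.151). The third held 4.69% and followed that share with an absolute r of 0.880, against 0.10 with MX2. A smaller part of the variation among the members thus ran along the composition of the libraries and not along MX2.

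**Figure D3:**
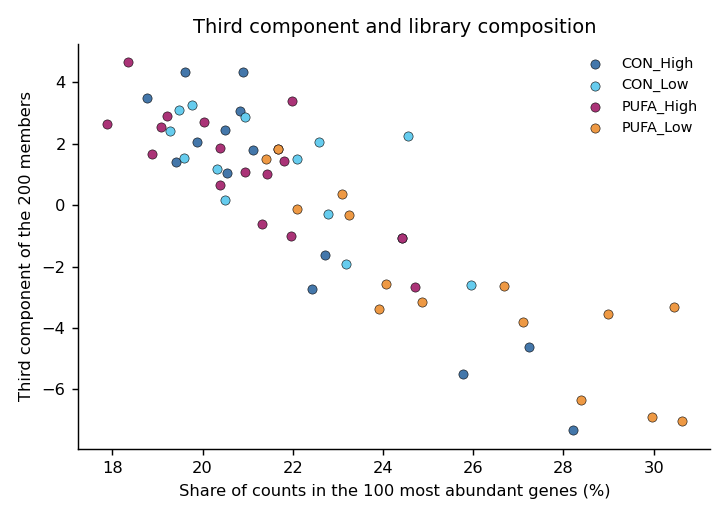
Score of the 200 members on the third principal component, with an arbitrary sign and unit (y axis), against the top-100 share in percent of counts (x axis), 1 point per heifer and coloured by diet group. The component follows the share with an absolute r of 0.880 and holds 4.69% of the variance, and most PUFA_Low heifers sit toward high shares.

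Single members differed in their relation to that share. Their r with it ran from -0.556 to 0.389 with a median of -0.076, under -0.3 for 31 members and above 0.3 for 4. The quartiles were -0.213 and 0.060. Over all tested genes it ran from -0.878 to 0.941 with a median of -0.035 and wider quartiles of -0.325 and 0.276. An r with the share is therefore not particular to the members. The member with the highest value, which ran from 160 to 626 CPM, had its highest level in CON_High replicate 11. The member with the lowest value was ENSBTAG00000014099, described next.

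Between the planes of nutrition in PUFA heifers, 3 of the 200 members (1.5%) were DEG, all at lower abundance on the low plane, where DEG were genes past a 1.5-fold change with a Benjamini-Hochberg adjusted p-value below 0.10 over all genes in edgeR's quasi-likelihood test. Over all tested genes 5.61% were DEG in this comparison and 3.17% were lower on the low plane. At any fold change 7 members passed the adjusted p-value, 6 of them lower, where 31.3% of all genes did and 16.3% were lower. Before adjustment, 11 members had a p-value under 0.05 (5120 genes in all, 35.6%, edgeR). The share called among the members was below that of all genes, a difference that was not tested. Their estimates were also less precise, with a median SE of 0.257 on the log2 scale against 0.131 over all genes. For 71 members the 95% interval of the change lay inside 1.5-fold in both directions, and for 62.5% of all genes. The median log2 fold change was -0.03 over the members and -0.03 over all genes.

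ENSBTAG00000014099 was the DEG with the smallest p-value among the members. Its lowest, median and highest values were 9.60, 16.7 and 28.8 CPM in PUFA_Low and 17.3, 30.6 and 41.6 CPM in PUFA_High. In the controls they were 13.2, 21.3 and 47.9 CPM in CON_Low and 15.5, 23.9 and 51.3 CPM in CON_High. PUFA_Low heifers reached less high than the other groups, yet overlapped each of them. The gene had an r of 0.664 with MX2. It was lower on the low plane in PUFA heifers by a log2 fold change of -0.67 (SE 0.171, adjusted p = 0.00336, edgeR), and in 5 of the 6 library code prefixes (0.31 in the remaining one). In control heifers the same difference was -0.12 (adjusted p = 0.953, edgeR), and the interaction of both was -0.55 (SE 0.248, adjusted p = 0.124), so a difference between the plane effects was not shown. With the top-100 share in the model, the difference in PUFA heifers was -0.34 (adjusted p = 0.506, edgeR) and no longer a DEG. The gene had an r of -0.556 with that share.

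ENSBTAG00000001492 had 2.60, 5.57 and 10.9 CPM as its lowest, median and highest values in PUFA_Low and 3.40, 7.37 and 22.5 CPM in PUFA_High. It had 3.66, 7.37 and 23.4 CPM in CON_Low and 3.01, 6.20 and 20.8 CPM in CON_High. The groups overlapped at their lower ends, and each other group held heifers above the highest in PUFA_Low. The log2 fold change between planes in PUFA heifers was -0.63 (SE 0.266, adjusted p = 0.0771, edgeR), and -0.35 (adjusted p = 0.736) with the top-100 share in the model. The gene had an r of -0.359 with that share. Leaving out 1 heifer ended the call in 12 of 60 fits, and so did the library code prefix as a block (-0.54, adjusted p = 0.123) and the replicate block (-0.59, adjusted p = 0.172). The gene was lower on the low plane in 5 of the 6 prefixes (0.0075 in the remaining one). The third DEG, given without its identifier, ran from 5.94 to 37.2 CPM in PUFA_Low with a median of 13.3, and from 6.73 to 61.6 CPM in PUFA_High with a median of 18.9. Its log2 fold change was -0.60 (adjusted p = 0.0954, edgeR), and 0.03 with the top-100 share in the model. Its r with the share was -0.526, and the call was lost in 18 of 60 fits without 1 heifer, with the prefix as a block (adjusted p = 0.131, edgeR) and with the replicate block (adjusted p = 0.161). Upper-quartile scale factors in place of TMM also ended the call (-0.57, adjusted p = 0.110, edgeR). The gene was lower in 4 of the 6 prefixes, with 0.39 and 0.056 in the others. With that share in the model 0 members were DEG, where 0.292% of all genes were. All 3 DEG thus had a negative r with the share over all 60 libraries. The share was itself highest in PUFA_Low, with a mean of 25.8% against 20.8% in PUFA_High. These values therefore cannot tell the share and the diet group apart. The part of the share in the result was not tested beyond these fits.

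**Figure D4:**
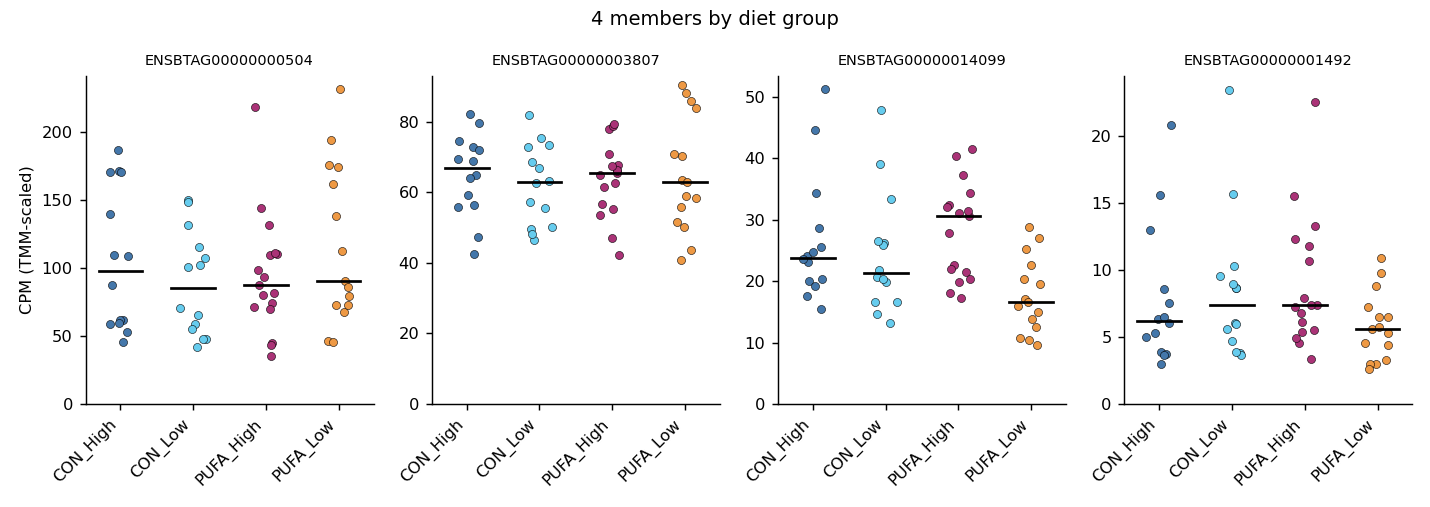
CPM (TMM-scaled, linear axis from 0) of 4 members in each heifer by diet group, with the group median as a bar. ENSBTAG00000000504 and ENSBTAG00000003807, the members with the highest r, overlap in all groups, and ENSBTAG00000014099 and ENSBTAG00000001492 have medians of 16.7 and 5.57 CPM in PUFA_Low against 30.6 and 7.37 CPM in PUFA_High.

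Between the planes in control heifers no member was a DEG, as was 0% of all genes. Before adjustment, 1 member had a p-value under 0.05 (705 genes in all, 4.91%, edgeR), and DESeq2 also called 0 members and 0 of 20669 genes. The median log2 fold change of the members was -0.07 against -0.01 over all genes, and 61 of 200 were positive. The members correlate with each other, so such counts are not separate readings, and the positive share of all genes is not given. MX2 had -0.21 (SE 0.774) in the same comparison. The 95% interval lay inside 1.5-fold for 84 members, and for 76.7% of all genes. With MX2 as a covariate, a fit described below, the median was -0.005 over the members and 99 of 200 were positive.

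For n-3 PUFA supplementation on the low plane no member was a DEG, where 2.57% of all genes were. DESeq2 called 0 members as well, and 440 of 20669 genes. Before adjustment, 7 members had a p-value under 0.05 (3803 genes in all, 26.5%, edgeR). At any fold change 3 members passed the adjusted p-value, 2 of them lower in PUFA_Low, against 17.5% of all genes and 7.74% lower. Among them was ENSBTAG00000014099, with a log2 fold change of -0.47 (adjusted p = 0.0767, edgeR), and of -0.17 (adjusted p = 1.00) with the top-100 share in the model. The median was 0.02 over the members and -0.01 over all genes, with 104 of 200 members positive (108 with MX2 as a covariate). On the high plane no member was a DEG, as was 0% of all genes. Before adjustment 1 member had a p-value under 0.05 (1513 genes in all, 10.5%, edgeR), and DESeq2 called 0 members and 2 of 20669 genes. The median there was -0.03 over the members and -0.001 over all genes, with 83 of 200 members positive (72 with MX2 as a covariate). These comparisons share groups with those between planes, so their values are not independent of each other.

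No member was a DEG for the interaction, the plane effect in PUFA heifers minus that in control heifers, where 8.04% of all genes were. Members with an unadjusted p-value under 0.05 numbered 5 (4174 genes in all, 29.1%), and the smallest adjusted p-value of a member was 0.124 (edgeR). DESeq2 called 0 members and 1238 of 20669 genes. The median SE of the members was 0.375 log2 units, against 0.192 over all genes. Only 29 members had an interval inside 1.5-fold, where 39.0% of all genes had one. Differences of this size were therefore poorly resolved for most members.

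**Figure D5:**
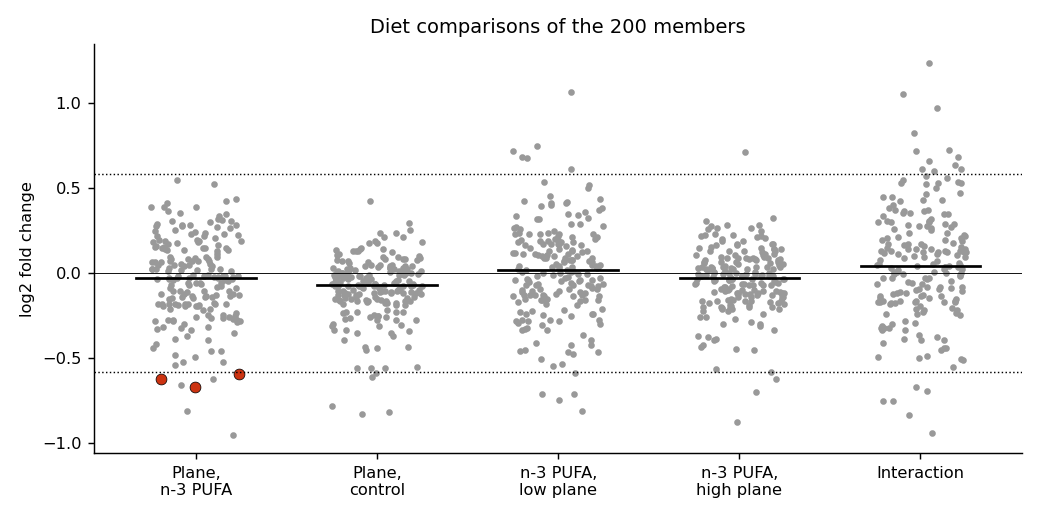
Log2 fold change of each of the 200 members (grey points) in the 5 diet comparisons, with the median of the members as a bar and 1.5-fold as dotted lines. Red points are the 3 DEG, all between the planes in PUFA heifers and all lower on the low plane, and the medians lie between -0.07 and 0.04.

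The members vary with MX2 among heifers, so the comparisons were also fitted with log2 CPM of MX2 as a covariate, a choice made after the data had been seen. MX2 also chose the members, and with it in the model the median SE of the members fell to 0.179 for the planes in PUFA heifers and to 0.262 for the interaction. Between the planes in PUFA heifers 3 members were DEG, 2 higher and 1 lower on the low plane, where 5.81% of all genes were and 3.47% were lower. The lower one was ENSBTAG00000014099 with a log2 fold change of -0.60 (adjusted p = 0.000356, edgeR). The higher ones had 0.79 and 0.64, against 0.53 and 0.55 without the covariate. The interaction then had 11 member DEG (5.5%), 9 positive and 2 negative, where 8.65% of all genes were DEG and 4.07% were negative. The positive ones ranged from 0.61 to 1.23, and the same members had 0.45 to 0.97 without the covariate. The negative ones had -1.93 and -0.70, and -0.39 (adjusted p = 0.809, edgeR) and -0.75 (adjusted p = 0.184) without it. With the top-100 share in place of MX2 none of the 11 was a DEG, as was 0% of all genes. On the low plane 1 member was a DEG, lower in PUFA_Low, against 2.65% of all genes and 1.11% lower. Its log2 fold change was -1.51 (adjusted p = 0.0845, edgeR) with MX2 in the model and -0.07 (adjusted p = 0.961) without it, so the call rests on the covariate. In the other comparisons none was. In these fits too the members were called at a share at or below that of all genes.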

How the data were processed

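Endometrial RNA of 60 heifers was sequenced as single-end reads, and per the labels the authors aligned them to the UMD3.1 genome with TopHat 2.0.9 and counted them on genes with HTSeq 0.5.4p5. The deposited values are raw counts of 24616 genes, of which 3947 had none in any library. Use of strand and of reads mapping to several places is not given in the sources used here, so members with near-identical copies or overlapping genes are uncertain. All columns were used (0 unassigned), and the 423 within-group library pairs held no repeated deposit, their smallest chi-square per gene being 14.8.

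Groups came from the labels. With edgeR 4.0.16 in R 4.3.3, genes were filtered by filterByExpr (14363 kept), scaled by TMM and, with a prior count of 2, turned into log2 CPM. MX2 and 5 identifiers left out were given by the rule of the set. A quasi-likelihood model with 1 coefficient per diet group was fitted to all genes, with Benjamini-Hochberg adjustment, SE derived from each F statistic, and 95% intervals from that SE. The scripts were tested on simulated data. Alternatives were other scale factors, DESeq2 1.42.0, no filter, other thresholds, blocks, covariates, fits on the compared groups, left-out heifers and exchanged PUFA planes.

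The members and lists were chosen with earlier results of these data known. Names were to follow r, abundance, span, DEG rank and marker or pathway lists. As 0 identifiers matched the gene table used (ARS-UCD2.0, 37063 genes), lists, markers, positions and promoter sequences were not used here, and 2 members with the highest r and the 2 lower DEG with the smallest p-values are given by identifier. Other members were picked as extremes after their values were seen.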

Additional observations from a re-analysis of the deposited data

How the results depend on the processing

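Of the DEG between planes in PUFA heifers, ENSBTAG00000014099 stayed a DEG in 60 of 60 fits without 1 heifer (log2 fold changes -0.74 to -0.62) and under every other setting that kept the labelled planes, except with the top-100 share as a covariate or when adjusted p-values had to be under 0.001. The 3 member DEG became 1 with no filter on low counts, 1 with code prefixes as a block, 1 at an adjusted p-value under 0.05, 0 with the top-100 share as a covariate, 0 at one under 0.001 and 7 at any fold change. They stayed 3 with MX2 as a covariate, but 2 were higher and 1 lower. Replicate numbers did not pair the heifers (mean r of deviations -0.053 between the same numbers and 0.0046 between different ones), and with the replicate block there was 1. Without 1 heifer the count ran from 1 to 5. It was 1 without PUFA_Low replicates 1, 2, 6, 8 or 10 or PUFA_High replicates 3, 5, 8 or 9, and 5 without PUFA_Low replicate 11. With the planes of the PUFA heifers exchanged the 3 were higher on the low plane (0.67, 0.63 and 0.60), and 2 members each were DEG for supplementation on the high plane and for the interaction. With the labelled planes, 0.292% of all genes were DEG with the top-100 share as a covariate and 5.81% with MX2 as a covariate. At any fold change 31.3% of all genes passed. The other counts of members in this section are given without the share of all genes, unless it stands above. None of these counts is read as a result about the members. The log2 fold change of the third DEG turned to 0.029 with the top-100 share as a covariate.

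For supplementation on the low plane the count of 0 became 3 at any fold change, 1 with MX2 as a covariate and 0 to 2 without 1 heifer (2 without CON_Low replicate 3). For the interaction it became 11 with MX2 as a covariate and 0 to 2 without 1 heifer (2 without CON_High replicate 1 or PUFA_Low replicate 11). For the planes in control heifers it was 0 under each alternative run. No count moved by over 1.5 times without both PUFA_High replicates 2 and 11. Chosen by Spearman's rho, the set shared 101 of its 200 members, and by the other choices tried between 143 and 197. The causes were not tested. What depth limits was not compared across members, of which 11 had at least 1 library with no count.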
